A study of Ovis aries with 9 samples.

Results

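Gene expression in the hypothalamus of Dolang sheep at puberty was compared with that after puberty. Of the 9 libraries of the series, 6 entered this comparison, from 3 ewes at puberty (130 days of age) and 3 ewes after puberty (150 days of age), with 1 library for each ewe. The 3 prepubertal ewes (120 days of age) supplied a reference level and a share of the estimate of spread. The breed and tissue were the same in all groups, and stage had been assigned by the study from repeated daily watching for estrus. Stage and age moved together and cannot be told apart. A gene's level is the summed FPKM (fragments scaled to transcript length and library size) of its annotated protein-coding transcripts. Of 21284 genes, 12714 averaged 1 FPKM or more at puberty or after it and were kept, and differences were taken on log2(FPKM + 1), as puberty minus postpuberty. This scale understates the change of low genes. FPKM values carry no read number, so the number of reads behind each gene's value is unknown and no counting interval is given.

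The hypothalamus starts puberty through a small set of neurons that release gonadotropin-releasing hormone in pulses, driven by kisspeptin, neurokinin B and dynorphin neurons that read estrogen. Glial cells, tanycytes and ciliated ependymal cells line the third ventricle beside these neurons and pass them signals from blood and cerebrospinal fluid. Myelin, cholesterol made in the brain, and energy and day-length signals are further parts of the system. In a tissue block, fewer cells of a type and less RNA per cell cannot be told apart.

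One library stood apart from the rest. Puberty 2 had a summed FPKM of 599726 over all transcripts, while the other 8 libraries had between 359588 and 398109. Of the genes kept it listed 803 at 0, whereas the others listed between 16 and 55, and its rank correlation with the other libraries reached at most 0.706 while every other pair lay at 0.826 or above. Ribosomal protein genes summed to 49537 FPKM in Puberty 2 and to between 11965 and 19268 elsewhere. Its inclusion moved the median log2 difference of all genes from -0.03 to -0.22. Differences are therefore given with and without it, and the genes that led the description are those that separated the same way in both versions, while others are named by list or for comparison.

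No gene passed the test. In limma on all 9 libraries, 0 of 12714 genes had an adjusted p below 0.05 with a log2 difference of at least 1 (0% higher and 0% lower), and the smallest adjusted p was 0.757. Without Puberty 2 the count was again 0 and the smallest limma adjusted p was 0.527. At an unadjusted p below 0.05 the test gave 260 genes (2.04% of those kept) with all libraries, 97 higher (0.763%) and 163 lower (1.28%) at puberty. Without Puberty 2 it gave 253 genes (1.99%), 108 higher (0.849%) and 145 lower (1.14%). An exact permutation test of 3 against 3 libraries cannot go below a two-sided p of 0.1, or 0.2 with 2 against 3. The differences below are accordingly levels and ranks in 6 animals, and none of them is a called change.

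All 3 puberty libraries lay above all 3 postpuberty libraries in 233 genes (1.83%) and below them in 698 genes (5.49%). With Puberty 2 left out, 681 genes (5.36%) lay above and 1051 (8.27%) lay below. A gene was taken to hold both ways if the 3 against 3 libraries did not overlap and its log2 difference was at least 0.5 in size with and without Puberty 2. This held for 247 genes (1.94%), of which 101 (0.794%) were higher at puberty and 146 (1.15%) were lower. The smaller of the paired differences had a median of 0.74 in the 101 genes and 0.70 in the 146, and it reached 1 in 20 and 29 of them. At the edge of the rule ODAD1 stood just inside at 0.502 and DHRS13 just outside at 0.498 on the higher side, and BRF2 just outside at 0.498 on the lower side. Puberty 2 was the most extreme of the puberty libraries in 48 of the 101 higher genes and in 107 of the 146 lower genes, and 36 of the latter were listed at 0 in it. The split between directions moved with scaling. Higher genes made up 40.9% of the 247 as deposited, 31.5% after scaling to equal totals, 52.7% after upper-quartile scaling and 64.0% after quantile normalization. Leaving out any 1 of the 6 libraries, which loosens the rule, gave between 440 (without Postpuberty 1) and 662 genes (without Puberty 3), with 601 without Puberty 1, 484 without Puberty 2, 617 without Postpuberty 2 and 534 without Postpuberty 3.

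**Figure D1:**
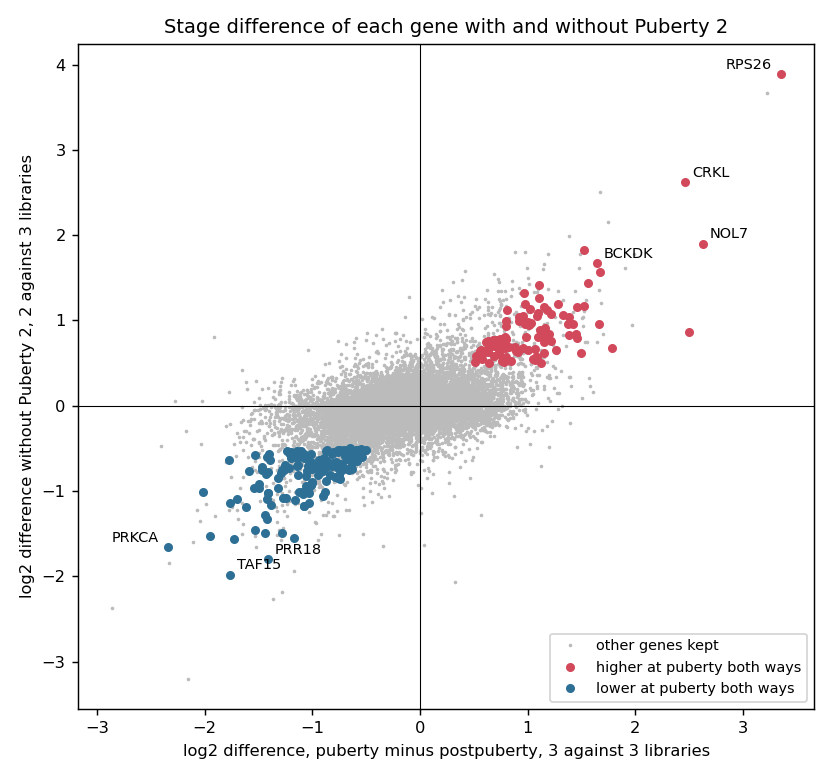
Log2 difference between puberty and postpuberty for each of the 12714 genes, with all 6 libraries on the horizontal axis and without Puberty 2 on the vertical axis. Red points are the 101 genes that were higher and blue points the 146 that were lower at puberty both ways, and grey points are the others, whose centre lies left of 0 on the horizontal axis (median -0.22) and near 0 on the vertical one (median -0.03).

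Among genes higher at puberty, CRKL combined a high level with a wide gap. CRKL, an adaptor protein that links receptor tyrosine kinases to Ras and Rap1, lies on chromosome 17 (72323648 to 72342249, ARS-UI_Ramb_v3.0) and was measured through 1 transcript. Its FPKM was 50.3, 37.6 and 55.4 in Puberty 1 to 3, against 1.81, 17.8 and 11.6 in Postpuberty 1 to 3. The lowest puberty library was more than double any postpuberty library, Puberty 2 included. The means were 47.8 ± 9.14 and 10.4 ± 8.09 FPKM (SD, n = 3 each), and the log2 difference was 2.46 ± 0.64 (SE) with all libraries and 2.62 ± 0.75 without Puberty 2. The prepubertal values of CRKL, 54.8, 53.0 and 26.7, were on the puberty side of the gap. All libraries of the younger stages thus lay above the 3 postpuberty libraries.

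BCKDK (chromosome 24, 27728519 to 27732747), the kinase that switches off the breakdown of branched-chain amino acids, was also higher at puberty. BCKDK measured 6.10, 5.69 and 6.12 FPKM at puberty and 3.05, 0.476 and 0.864 after it. The puberty libraries were nearly equal and the spread lay in the postpuberty group. The log2 difference of BCKDK was 1.64 ± 0.37 with and 1.67 ± 0.41 without Puberty 2, and the prepubertal values of 5.54, 3.72 and 4.14 again lay above every postpuberty value.

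TAF15, an RNA-binding protein that takes part in transcription, was lower at puberty. TAF15 measured 0.408, 2.53 and 2.53 FPKM at puberty and 4.88, 9.99 and 9.58 after it. The groups did not overlap, and the prepubertal values of 3.05, 5.17 and 3.69 stood above all puberty values. The log2 difference was -1.76 ± 0.43 with and -1.98 ± 0.44 without Puberty 2, and TAF15 did not hold both ways under quantile normalization.

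The other higher genes of the naming rule had varied roles. RAP1GAP2, which switches off the small GTPase Rap1, measured 10.2, 3.53 and 5.86 FPKM at puberty and 1.93, 2.04 and 2.94 after it. MAPK8IP3, a scaffold of the JNK kinases and of axonal transport, measured 27.4, 33.1 and 12.5 against 9.99, 5.17 and 11.1. In both genes the prepubertal libraries also lay above the postpuberty ones, while the lowest puberty library was close to the highest postpuberty library. Different transcripts of RAP1GAP2 carried the level in different libraries. Its main transcript overlapped between the stages, at 10.2, 0 and 5.84 FPKM at puberty and 1.93, 2.04 and 2.94 after it. Before puberty that transcript measured 0.5, 10.3 and 1.96 FPKM. The log2 differences with and without Puberty 2 were 1.10 and 1.42 for RAP1GAP2 and 1.33 and 1.06 for MAPK8IP3. NOL7, a nucleolar protein, measured 5.46, 35.5 and 9.08 against 2.07, 0.612 and 1.04, with log2 differences of 2.63 and 1.90. RAB6A, a GTPase of Golgi traffic, differed by 1.46 and 1.16, but Puberty 3 (6.72 FPKM) was only just above Postpuberty 2 (6.27 FPKM). The main transcript of RAB6A overlapped between the stages, at 6.79, 13.6 and 1.85 FPKM against 1.18, 3.7 and 0.291. Its other transcript carried most of Puberty 3, with 4.87 FPKM, and was listed at 0 in Puberty 1 and 2. MRPL39, a mitochondrial ribosomal protein, differed by 1.02 and 1.13, and COLEC11, a secreted lectin of the complement system, by 1.03 and 0.97. RAP1GAP2, MRPL39 and COLEC11 did not hold both ways with equal totals. RPS26, a ribosomal protein with near-identical copies elsewhere in mammalian genomes, had the widest gap on paper, 3.35 and 3.89. Its FPKM of 2.09, 8.57 and 271 at puberty and 1.4, 1.84 and 0.106 after it, with 349, 1.55 and 0.159 before it, showed that single libraries set this value, and how reads were shared among copies is uncertain.

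**Figure D2:**
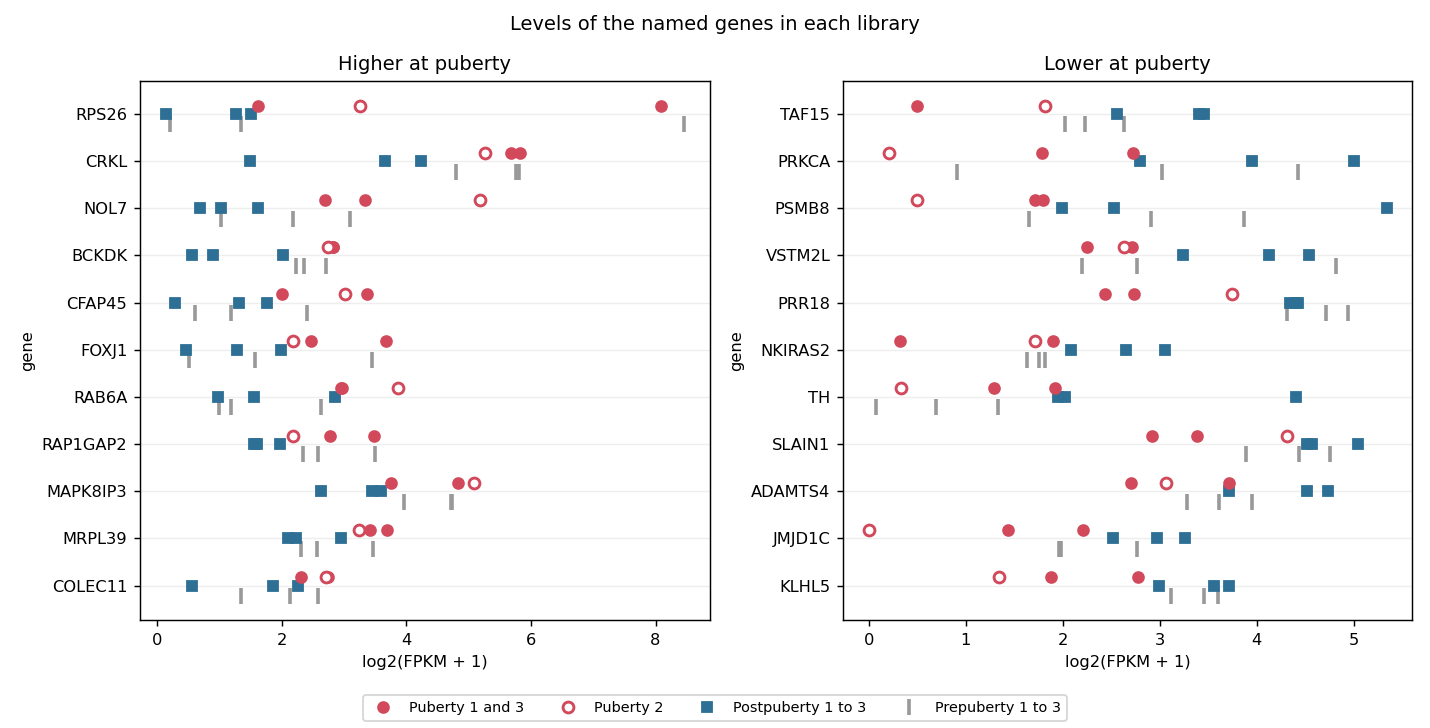
Level, log2(FPKM + 1), of genes with the widest gap in each direction among those that held both ways, had a symbol and reached a mean of 5 FPKM. Each point is 1 library: filled red circles are Puberty 1 and 3, open red circles Puberty 2, blue squares the 3 postpuberty libraries and grey ticks the 3 prepubertal ones. In each row all red circles lie on one side of all blue squares, narrowly so in several rows such as RAB6A, TH and ADAMTS4.

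Several genes of motile cilia were among those higher at puberty. Motile cilia move cerebrospinal fluid over ependymal cells and are built under the transcription factor FOXJ1. FOXJ1 (chromosome 11, 54887514 to 54892321) measured 4.54, 3.55 and 11.8 FPKM at puberty and 1.44, 0.382 and 2.99 after it. The groups of FOXJ1 were separated by less than 1 FPKM, and its log2 difference was 1.53 ± 0.74 with and 1.82 ± 0.86 without Puberty 2. FOXJ1 no longer held both ways with equal totals. CFAP45, a protein inside the ciliary microtubules, measured 3.01, 7.13 and 9.32 against 1.49, 0.222 and 2.39, a log2 difference of 1.68 ± 0.57 with and 1.56 ± 0.67 without Puberty 2. Different transcripts of CFAP45 carried the level in different libraries.

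After these values were seen, all genes whose symbols begin with CFAP, DNAH, DNAI, DRC, ODAD, RSPH or TEKT (ciliary and flagellar proteins, axonemal dyneins and their docking, regulatory-complex and radial-spoke proteins, and tektins) were taken as a list of 84, of which 32 were kept. Of the 32, 9 lay above all postpuberty libraries in all 3 puberty libraries, beside 1.83% of all genes, and 0 lay below. Without Puberty 2 the count was 13, beside 5.36% of all genes, and again 0 lay below. The 6 that held both ways were CFAP45, CFAP141, CFAP52, CFAP107, CFAP300 and ODAD1, beside 0.794% of all genes. Of the 32, 15 had reached a mean of 1 FPKM at puberty only, against 374 of the 12714 genes, and so had 4 of the 6. The filter therefore favoured a higher level at puberty in them, and these counts describe the list without testing it. Without the filter 83 of the list entered, 18 lay above (beside 2.23% of all genes in that setting), 8 held (beside 0.614%) and the median was 0.18. At a minimum of 5 FPKM 9 entered, 1 held (beside 0.757% of all genes) and the median was 0.20. The list's median log2 difference was 0.40 with and 0.38 without Puberty 2, and 27 of the 32 differences were positive in each version, while 31.7% and 43.7% of all genes had a positive difference. Under the other scalings the median ran from 0.27 with equal totals to 0.62 with quantile normalization. Single libraries moved the count that held both ways, to 3 (with 1 on the lower side) without Puberty 3, 4 without Postpuberty 2 and 10 without Puberty 1, where 1.06%, 1.46% and 1.82% of all genes held higher, with a median between 0.26 and 0.53. Most of these genes were low. CFAP52 measured 0.903, 1 and 2.81 FPKM against 0.291, 0.214 and 0.762, and CFAP107 measured 0.722, 1.07 and 1.6 against 0.192, 0.0615 and 0.404. Other ciliary genes among the 101, also picked after their values were seen, were SPA17, DNALI1, ZMYND10, CAPSL and ROPN1. ZMYND10, a dynein assembly factor, measured 4.70, 11.8 and 7.95 FPKM against 3.09, 3.26 and 4.69.

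The prepubertal libraries did not place these genes at a single level. FOXJ1 measured 9.90 FPKM in Prepuberty 1 but 0.434 and 1.96 in Prepuberty 2 and 3, and CFAP45 measured 4.29, 0.524 and 1.29. Prepuberty 1 thus reached the pubertal range and the other prepubertal libraries did not. Choroid plexus, the fluid-making tissue of the ventricles that also carries motile cilia, was unevenly present as judged by its markers. Its 7 marker genes summed to 256, 555 and 7627 FPKM at puberty, to 51.7, 39.7 and 727 after it, and to 339, 13.3 and 33.5 before it. TTR, the thyroid hormone carrier secreted by choroid plexus, made up most of these sums, with 7594 FPKM in Puberty 3 and 36.9 in Postpuberty 2. Of the 5 choroid plexus genes kept, 0 separated the stages, near the 1.83% above and 5.49% below of all genes, and the sum in Postpuberty 3 exceeded those in Puberty 1 and 2. The list summary also depended on which libraries were high, with a median log2 difference of 0.76 with and 1.33 without Puberty 2. Without Puberty 3 the median turned to -0.33, and 1 of the 5 genes held lower, beside 527 of all 12714 genes. The libraries with the highest FOXJ1, Puberty 3 and Prepuberty 1, were among the 4 with the highest choroid plexus sums, and the part of ventricular tissue in the ciliary difference was not tested. In the list of ependymal and tanycyte markers, 1 of 6 genes held both ways, which was FOXJ1 itself, beside 0.794% of all genes. NES, an intermediate filament gene of tanycytes in the same list, lay the other way, with 3.71, 2.25 and 4.01 FPKM at puberty and 5.02, 4.25 and 5.33 after it, and log2 differences of -0.46 with and -0.27 without Puberty 2. VIM overlapped, with 77.8, 103 and 167 FPKM at puberty and 272, 63.6 and 177 after it. CCDC153 of the same list overlapped as well, with 10.2, 39.9 and 9.5 FPKM against 9.65, 6.46 and 5.36. Its log2 difference was 1.08 with and 0.45 without Puberty 2. Of the 6 genes, 4 had a positive difference in each version, beside 31.7% and 43.7% of all genes. The list's median was 0.51 with and 0.41 without Puberty 2.

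**Figure D3:**
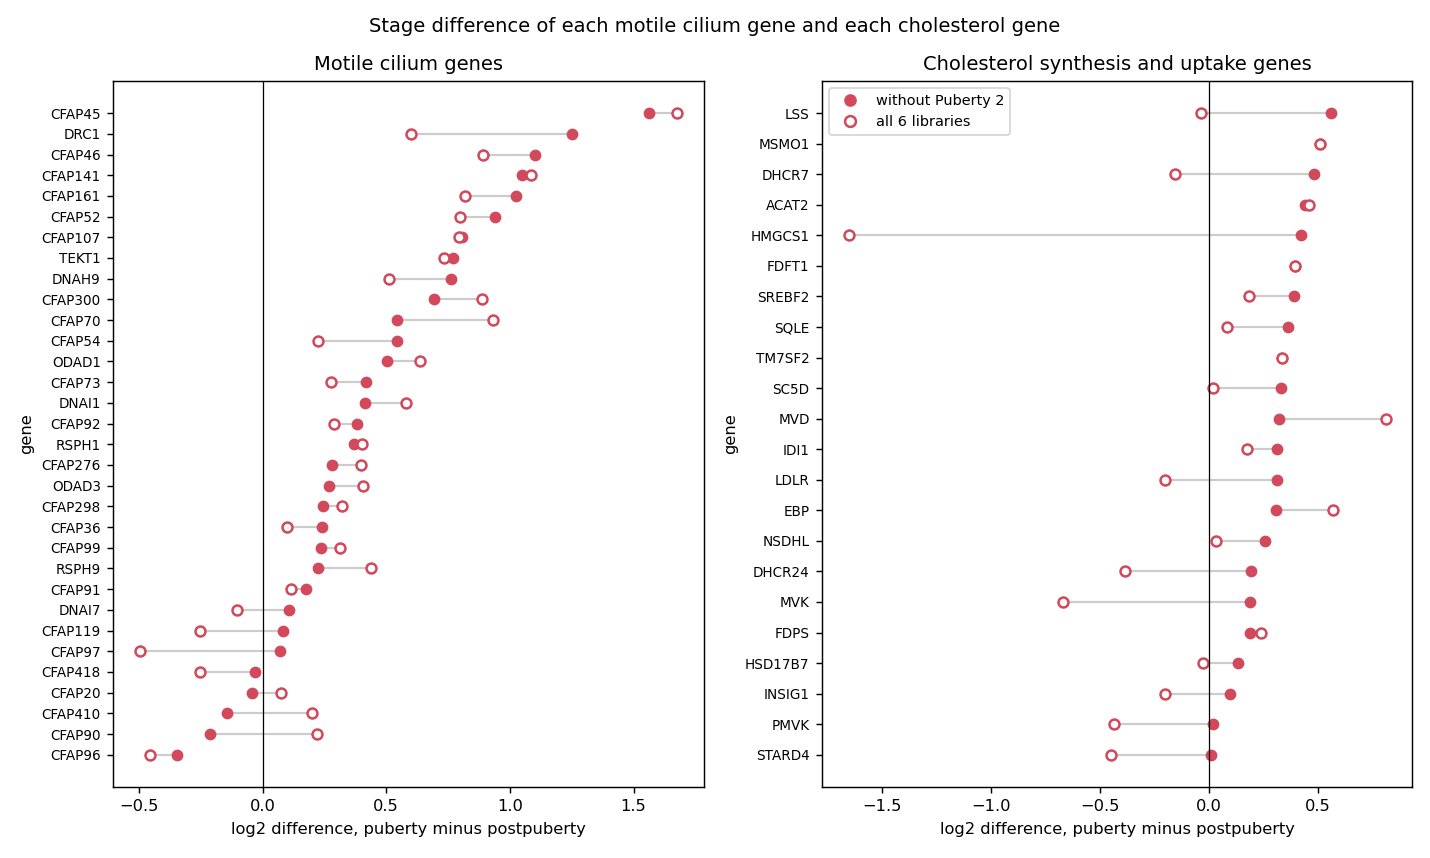
Log2 difference between puberty and postpuberty for the 32 motile cilium genes (left) and the cholesterol genes (right). Open circles include all 6 libraries and filled circles leave out Puberty 2, and an open circle covers the filled one where both agree. Of the cilium genes 27 lie right of 0 in either version, whereas every cholesterol gene drawn does without Puberty 2 and 12 do with it.

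Cholesterol synthesis gave a pattern that rested on leaving out Puberty 2. Glia make the cholesterol of myelin and synapses within the brain, through a long chain of enzymes. Without Puberty 2, all 23 genes of the list had a positive difference, with a median of 0.32, and 9 of the 23 lay above all postpuberty libraries, beside 5.36% of all genes. With Puberty 2, 12 of the 23 were positive, the median was 0.02, and 3 lay above, beside 1.83%. Of all genes, 43.7% had a positive difference without and 31.7% with Puberty 2. HMGCS1, an early enzyme of the chain, measured 94.8 and 111 in Puberty 1 and 3, 0.399 in Puberty 2, and 82.0, 63.8 and 85.3 after puberty. LSS, which closes the sterol rings, measured 23.1 and 24.0 in Puberty 1 and 3, 6.13 in Puberty 2, and 17.1, 13.1 and 17.1 after puberty. Puberty 2 was far below both stages in these genes.

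MSMO1, TM7SF2 and ACAT2 were higher in all 3 puberty libraries. MSMO1, a sterol demethylase, measured 77.5, 87.0 and 96.9 FPKM against 63.8, 47.8 and 73.1. Its log2 difference was 0.51 ± 0.31 with and 0.51 ± 0.33 without Puberty 2. MSMO1 was the only 1 of the 23 genes to hold both ways, beside 0.794% of all genes. ACAT2, a thiolase at the start of the chain, measured 46.9, 50.9 and 50.7 against 29.4, 38.5 and 40.1. Prepuberty 1 was high in this list too, with 114 FPKM for MSMO1 and 126 for HMGCS1. The median of the list without Puberty 2 was larger than that of all genes (-0.03), and its sign with all libraries turned with scaling, at -0.16 with equal totals and 0.16 with quantile normalization. MSMO1 held under upper-quartile scaling but not with equal totals or quantile normalization.

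On the lower side, PRR18 had a tight postpuberty group but a wider puberty group. PRR18 (chromosome 8, 89012004 to 89016698), a gene for a proline-rich protein measured through 1 transcript, had 4.42, 12.4 and 5.63 FPKM at puberty and 19.2, 20.1 and 20.4 after it. The postpuberty libraries were almost equal, and Puberty 2 lay between them and the other puberty libraries. The prepubertal values of 29.7, 18.8 and 25.2 were likewise above all puberty values. The log2 difference of PRR18 was -1.41 ± 0.35 with all libraries and -1.80 ± 0.21 without Puberty 2, where its limma adjusted p of 0.527 was the smallest of that fit. When libraries were weighted by their agreement with the others, PRR18 was the only gene called, at a limma adjusted p of 0.0344. That fit gave Puberty 2 a weight of 0.0589 and Prepuberty 3, which is outside the contrast, the largest weight of 8.32.

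PRKCA, PSMB8 and TH were lower at puberty with a wide spread in the postpuberty group. PRKCA, the protein kinase C isoform that acts downstream of the gonadotropin-releasing hormone receptor and of calcium, measured 5.6, 0.156 and 2.45 FPKM at puberty and 31.1, 14.5 and 5.92 after it. Puberty 1 and Postpuberty 3 were nearly equal, and the prepubertal values of 20.4, 0.882 and 7.12 overlapped both groups. The log2 difference of PRKCA was -2.34 ± 0.96 with and -1.66 ± 1.02 without Puberty 2. PSMB8, a subunit of the immunoproteasome, measured 2.28, 0.412 and 2.47 against 2.98, 4.76 and 39.4, so 1 postpuberty library set most of its log2 difference of -1.95 with and -1.53 without Puberty 2. TH, which makes the precursor of dopamine, measured 2.79, 0.255 and 1.44 against 20.2, 2.87 and 3.05, with log2 differences of -1.61 and -1.19. SLC6A3, the dopamine transporter, measured 0.152, 0.542 and 0.192 against 12.5, 1.92 and 0.259. Postpuberty 1 was high in both dopamine genes, and the groups of SLC6A3 overlapped through Puberty 2. PRKCA and TH no longer held both ways under upper-quartile scaling, equal totals or quantile normalization, and neither did ADAMTS4, OPALIN or GRM3, whereas PSMB8 and PRR18 held under all of these.

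The remaining lower genes of the naming rule had narrower groups. KLHL5, an adaptor of a ubiquitin ligase, measured 2.67, 1.53 and 5.86 FPKM against 6.92, 12.1 and 10.8, and its prepubertal values of 9.93, 7.65 and 11.1 were with the postpuberty ones. SLAIN1, which promotes microtubule growth, measured 6.55, 18.9 and 9.46 against 32.0, 21.9 and 22.7. The log2 differences with and without Puberty 2 were -1.42 and -1.09 for KLHL5 and -1.17 and -1.56 for SLAIN1. ADAMTS4, a protease of the extracellular matrix, measured 12.1, 7.35 and 5.52 against 21.8, 12.1 and 25.5, with Puberty 1 and Postpuberty 2 practically tied and log2 differences of -1.16 and -1.11. NKIRAS2, an inhibitor of NF-kappaB signalling, measured 2.73, 2.28 and 0.249 against 5.28, 3.24 and 7.29, a log2 difference of -1.29 with and -1.49 without Puberty 2. VSTM2L differed by -1.44 and -1.49, and JMJD1C, of the histone demethylase family, by -1.70 and -1.09. JMJD1C was listed at 0 in Puberty 2, so its smaller difference is the one without it. SLAIN1 did not hold both ways under upper-quartile scaling, nor NKIRAS2 under quantile normalization.

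LAMA4, a laminin chain of vessel walls, measured 0.370, 0.604 and 1.12 FPKM against 2.12, 1.70 and 2.15, with a log2 difference of -0.84 ± 0.26 with and -0.81 ± 0.27 without Puberty 2. It was the only 1 of 21 genes kept from the collagen and laminin list to hold both ways, beside 1.15% of all genes, and it did not hold under quantile normalization. No collagen of the list separated the stages in either version, and LAMA1, another laminin chain, lay above all postpuberty libraries without Puberty 2 only, at a log2 difference of 0.32. P3H3 and PCOLCE, picked after their values were seen, were low at puberty. P3H3, of the collagen prolyl hydroxylase family, measured 0.357, 0 and 0.428 against 2.69, 3.03 and 3.69, a log2 difference of -1.72 ± 0.25 with and -1.57 ± 0.21 without Puberty 2. PCOLCE, which speeds the trimming of procollagen, measured 0.215, 0 and 0.142 against 4.26, 1.84 and 1.26, a log2 difference of -1.53 with and -1.46 without Puberty 2. COL1A1 did not separate the stages, with 3.18, 2.78 and 30.2 FPKM at puberty and 39.6, 2.11 and 15.7 after it. The summed mural and fibroblast markers, 132, 112 and 325 at puberty and 763, 113 and 241 after it, overlapped as well, and their part in these differences was not tested.

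Some oligodendrocyte genes were lower at puberty, while the myelin list's median with all libraries was near that of all genes. OPALIN, a membrane protein of mature oligodendrocytes, measured 120, 106 and 104 FPKM at puberty and 220, 188 and 125 after it. The groups touched closely at Puberty 1 and Postpuberty 3, and the log2 difference was -0.65 ± 0.27 with and -0.62 ± 0.26 without Puberty 2. Of the 12 myelin genes kept, 2 (OPALIN and CLDN11) were lower in all 3 puberty libraries, beside 5.49% of all genes. Without Puberty 2 there were 5, beside 8.27%, adding MOG, MAG and CNP. CLDN11, the tight-junction protein of myelin, measured 207, 122 and 261 against 408, 264 and 271. MAG, an adhesion protein of inner myelin, measured 239 and 230 in Puberty 1 and 3, 491 in Puberty 2, and 319, 308 and 287 after puberty. The most abundant myelin gene, MBP, overlapped, with 4350, 7300 and 6220 FPKM against 7010, 1110 and 3920. Its log2 difference had the other sign, at 0.90 with and 0.73 without Puberty 2. Counts in this list moved with scaling. Under upper-quartile scaling, equal totals or quantile normalization, 1 of the 12 was lower in all 3 puberty libraries and 0 held both ways, beside 3.56%, 5.88% and 2.81% of all genes lower in all 3. The 12 myelin genes had a median log2 difference of -0.22 with and -0.24 without Puberty 2, and 9 were negative in each version. The 10 precursor genes had a median log2 difference of -0.49 with and -0.24 without Puberty 2, and 10 and 6 of them were negative. The medians of all genes were -0.22 and -0.03. Of all 12714 genes, 8689 and 7158 were negative in the same versions. Among the 10, 0 separated the stages with Puberty 2, beside 1.83% of all genes above and 5.49% below. Without Puberty 2, 3 (CSPG4, SOX10 and OLIG1) lay below all postpuberty libraries, beside 8.27% of all genes.

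Genes of the reproductive axis were mostly listed at low values or at 0, and a listed 0 in these files need not mean that a gene was not expressed. GNRH1, the gene of gonadotropin-releasing hormone, was listed at 0 in all 9 libraries. KISS1 reached at most 0.36 FPKM, and AGRP at most 0.169 FPKM. Of 21 reproductive neuropeptides and receptors, 9 were kept, and 0 separated the stages with or without Puberty 2, beside 1.83% of all genes above and 5.49% below (5.36% and 8.27% without Puberty 2). In so short a list a count of 0 is near those shares. TAC3, the gene of neurokinin B, measured 2.41, 0.156 and 0.322 FPKM at puberty and 0.403, 0.207 and 2.73 after it. PDYN, the dynorphin precursor, measured 2.63, 0 and 1.21 against 0.398, 7.35 and 4.14. Both peptides varied by more within a stage than between the stages. OXT measured 0.791, 2.07 and 0.586 against 1.15, 4.81 and 0.650, and AVP measured 0.683, 10.4 and 0.863 against 0.688, 2.66 and 1.91. These are low levels for the genes of oxytocin and vasopressin, which neurons of the supraoptic and paraventricular nuclei make in abundance.

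Transcription factors of the hypothalamus were listed at mixed levels. Of 33 with a symbol in the annotation, 12 were kept, 5 reached a mean of 5 FPKM, and the list summed to between 37.1 and 67.4 FPKM over the 9 libraries. NR2F1, which other brain regions also express, measured 9.08, 8.02 and 8.63 FPKM at puberty and 11.5, 8.10 and 9.08 after it. NKX2-1, which patterns the ventral hypothalamus, was listed at 0 in 1 puberty and 2 postpuberty libraries and reached at most 0.262 FPKM. SIX6 reached at most 0.0871 FPKM, and FEZF1 and BSX were listed at 0 throughout. Serotonin genes that mark the raphe nuclei of the brainstem were present in some libraries. TPH2, the enzyme of neuronal serotonin synthesis, measured 4.16, 0.0293 and 1.06 FPKM at puberty and 0.0463, 0.0589 and 6.15 after it, and SLC6A4, the serotonin transporter, measured 2.2, 0 and 0.798 against 0.109, 0.0533 and 4.91. Both genes were high in Postpuberty 3 and Puberty 1 and near 0 in Postpuberty 1 and 2. Pituitary markers varied likewise. PRL, the prolactin gene, measured 0.297, 2.65 and 77.8 at puberty and 200, 74.4 and 8.46 after it. The markers thus differed between libraries of the same stage, and their part in the stage differences was not tested.

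Receptors and enzymes of sex steroids showed 1 library with a profile of its own. ESR1, the estrogen receptor alpha gene, measured 0.469, 0.445 and 0.991 FPKM at puberty and 0.616, 0.374 and 1.08 after it, and PGR, the progesterone receptor gene, reached at most 0.369. Of the 13 genes kept from this list, 0 held both ways, beside 1.94% of all genes, and 5 lay above all postpuberty libraries without Puberty 2, beside 5.36% of all genes. HSD3B1, CYP11A1 and STAR, which make steroids from cholesterol, were carried by Puberty 3. HSD3B1 measured 6.31 FPKM in Puberty 3 and at most 0.32 in the other libraries, CYP11A1 measured 4.08 against at most 0.0633, and STAR measured 4.71 against at most 1.63. INSL3, a hormone of steroid-making gonadal cells that was looked up after the leave-one-out fits were seen, measured 9.65 FPKM in Puberty 3, 0.111 in Puberty 1 and 0 in the other 7 libraries. A stage difference in these 4 genes would be a difference of 1 animal.

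In the pathway of gonadotropin-releasing hormone secretion and signalling, 36 of 45 genes were kept, and 2 held both ways, both lower at puberty, with PRKCA among them, beside 1.15% of all genes. Under upper-quartile scaling or quantile normalization 0 held, and 1 did with equal totals. Of all 12714 genes, 112, 94 and 165 held lower in these 3 settings. HRAS was the list's 1 gene above in all 3 puberty libraries, beside 1.83% of all genes, at 11.3, 54.5 and 13.5 against 11.1, 8.63 and 11. The list's median was -0.35 with and -0.02 without Puberty 2, close to those of all genes (-0.22 and -0.03). GNAQ, the G protein subunit used by the gonadotropin-releasing hormone receptor, measured 12.6, 7.27 and 10.6 against 12.5, 12.1 and 10.6, and its log2 difference was -0.22 with and -0.02 without Puberty 2. ARRB1, the beta-arrestin 1 gene, measured 34.0, 11.1 and 21.8 against 32.6, 30.5 and 34.0, a log2 difference of -0.65 ± 0.39 with and -0.24 ± 0.29 without Puberty 2. MKRN3, an imprinted brake on puberty in people, stayed under the minimum, with 0.834, 0.181 and 0.693 against 0.991, 0.878 and 0.884.

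Most genes of the neuron and synapse lists overlapped between the stages. Neuron markers summed to 1704, 433 and 1396 FPKM at puberty and 523, 1797 and 1979 after it, so Puberty 2 and Postpuberty 1 were both poor in them. Of 31 vesicle-release genes, 0 separated the stages in either version, beside 1.83% of all genes above and 5.49% below (5.36% and 8.27% without Puberty 2). The glutamate list had 2 of 21 genes that held both ways, GRM3 and GRIK5, beside 1.15% of all genes that were lower. GRM3, a metabotropic receptor that astrocytes also carry, measured 13.3, 7.69 and 13.0 against 27.7, 34.5 and 14.5, a log2 difference of -1.06 ± 0.36 with and -0.83 ± 0.35 without Puberty 2. GRIK5, a kainate receptor subunit, measured 2.71, 0.886 and 5.02 against 5.68, 8.43 and 6.07, a log2 difference of -1.13 with and -0.69 without Puberty 2, and it also held under the 3 other scalings. Among 37 ion channel genes, CACNA1G, a low-threshold calcium channel, and KCNK2, a leak potassium channel, were lower both ways, beside 1.15% of all genes. The log2 differences with and without Puberty 2 were -1.47 and -0.76 for CACNA1G and -0.74 and -0.52 for KCNK2. CACNA1G was listed at 0 in Puberty 2, with 2.78, 0 and 4.02 FPKM at puberty and 6.42, 7.93 and 5.06 after it. KCNK2 held with equal totals but not under upper-quartile scaling or quantile normalization. Of 16 immediate-early genes, 0 separated the stages, beside the same shares. This count turned on single libraries, with 8 lower and 1 higher without Puberty 3 (beside 16.9% and 3.63% of all genes) and 3 lower without Postpuberty 2 (beside 13.0% of all genes). HLF, an output factor of the circadian clock, was the 1 of 17 clock genes to hold both ways, at 11.3, 0 and 7.85 FPKM against 18.4, 15.2 and 12.8, beside 1.15% of all genes. Its log2 difference was -1.77 with Puberty 2, where it was listed at 0, and -0.64 without.

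**Figure D4:**
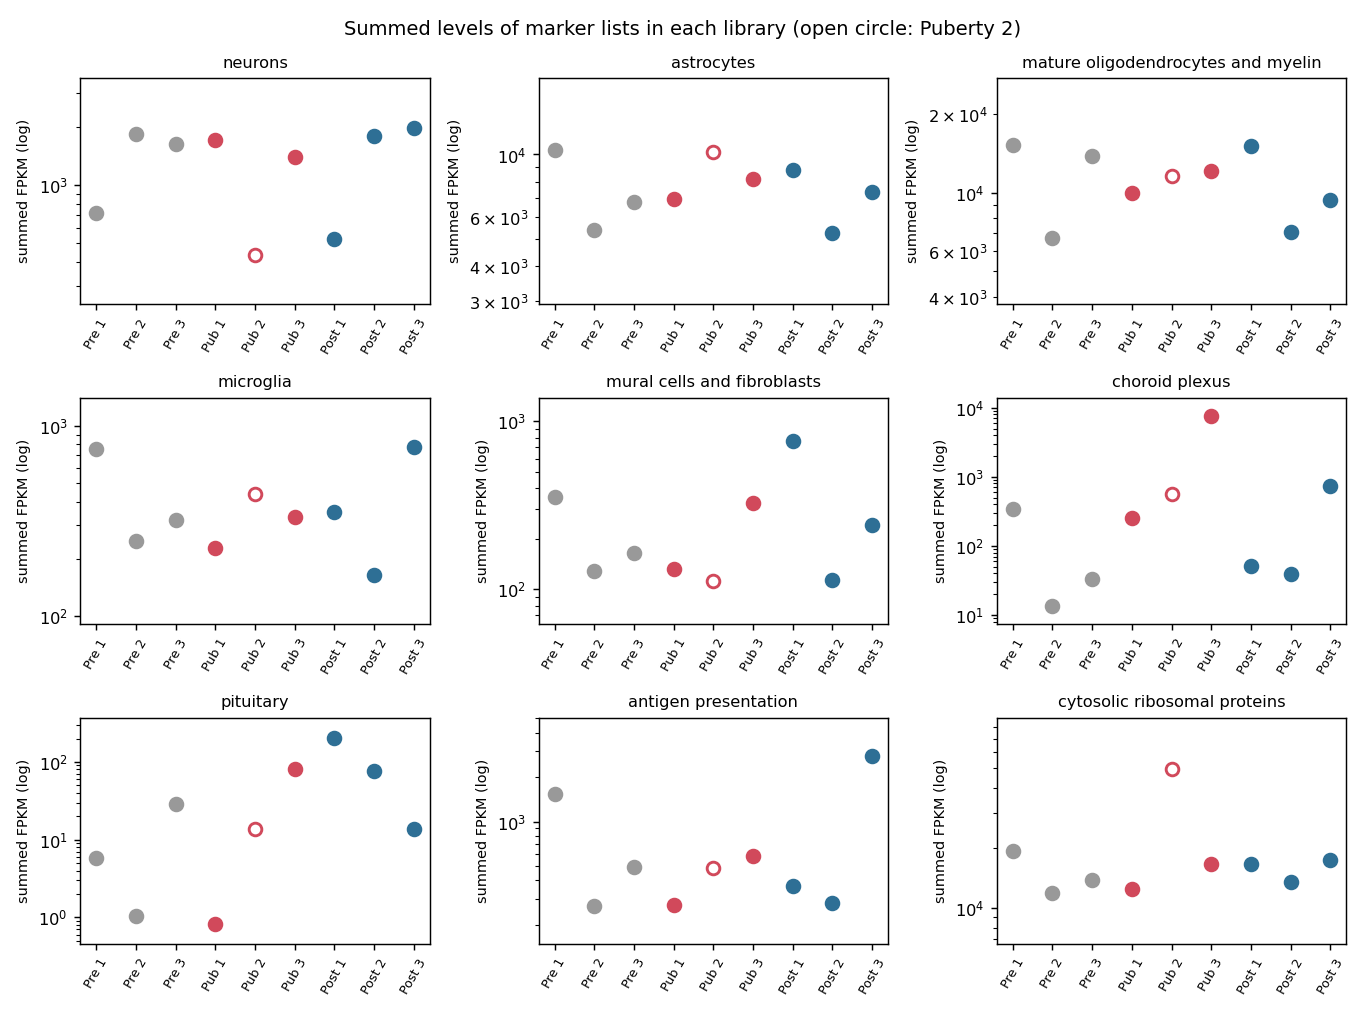
Summed FPKM of marker and pathway lists in each library, on a log axis of its own in each panel. Grey points are prepubertal, red pubertal (Puberty 2 open) and blue postpubertal libraries, each point 1 ewe. Puberty 3 stands out for choroid plexus (7627), Postpuberty 1 for mural cells (763) and pituitary (204), Postpuberty 3 for antigen presentation (2795) and Puberty 2 for ribosomal proteins (49537).

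Few immune, vascular and energy genes held both ways. Antigen-presentation genes summed to 271, 488 and 589 FPKM at puberty and 366, 282 and 2795 after it, and PSMB8 was the 1 of 12 to hold both ways, beside 1.15% of all genes. The list's medians of -0.67 and -0.60 thus rested on Postpuberty 3. EGFL7, which endothelial cells secrete, was higher at puberty, with 14.0, 29.5 and 20.0 against 6.46, 9.74 and 9.60 and a log2 difference of 1.17 ± 0.37 with and 0.91 ± 0.35 without Puberty 2. It was the only 1 of 11 endothelial genes to hold both ways, beside 0.794% of all genes, and CLDN5, the most abundant, overlapped, with 60.6, 624 and 86.5 against 114, 64.2 and 84.5. Respiratory-chain genes had a median log2 difference of 0.44 with and 0.15 without Puberty 2, and 28 and 29 of the 32 were positive, beside 31.7% and 43.7% of all genes. They had 0 of 32 members above all postpuberty libraries, beside 1.83% of all genes, but 21 of 32 once Postpuberty 2 was left out, beside 4.77% of all genes in that setting. Of the 49 genes in the ribosomal protein list, which did not include RPS26, RPL6 alone held both ways, beside 0.794% of all genes. RPL6 measured 162, 320 and 247 against 130, 121 and 152 FPKM. The median of that list was 0.45 with and -0.13 without Puberty 2. DIO2, which activates thyroid hormone in tanycytes under long days, measured 2.91, 2.27 and 0.948 against 1.18, 2.70 and 0.815. In feeding peptides, POMC measured 3.15, 22.4 and 12.8 against 17.4, 10.7 and 4.37 and NPY 5.10, 0.222 and 6.13 against 1.78, 8.04 and 12, and 0 of the 13 genes kept separated the stages, near the 1.83% above and 5.49% below of all genes.

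**Figure D5:**
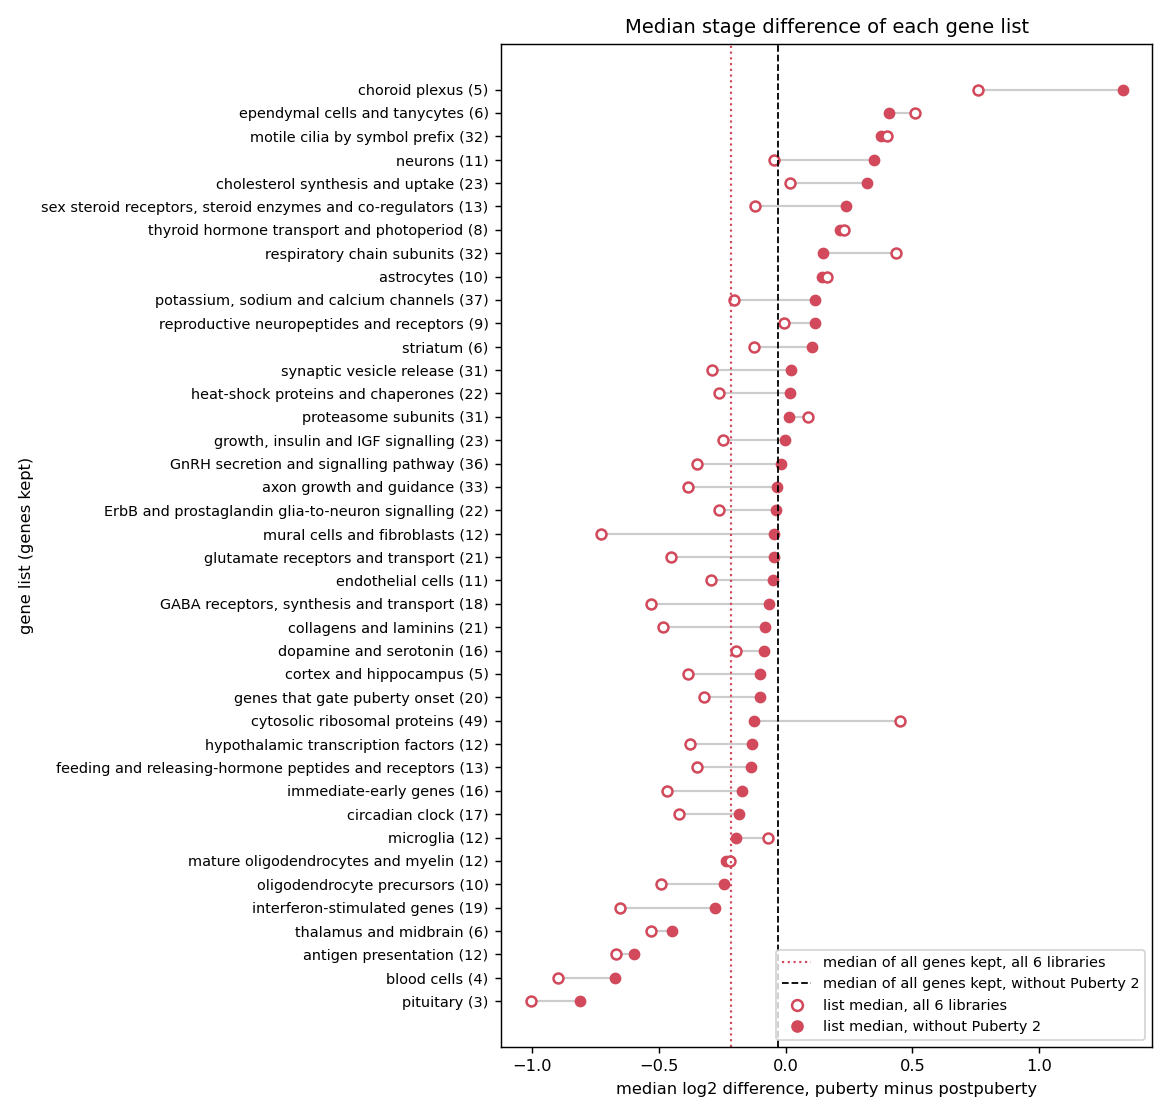
Median log2 difference between puberty and postpuberty of each gene list with at least 3 genes kept (their number in brackets). Open circles include all 6 libraries, filled circles leave out Puberty 2, and the dotted and dashed lines mark the medians of all genes in the same versions (-0.22 and -0.03). Choroid plexus, ependymal and motile cilium lists lie to the right in both versions and pituitary, blood and antigen-presentation lists to the left, while ribosomal proteins cross from 0.45 to -0.13.

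The prepubertal libraries placed part of the 247 genes. Of the 101 higher genes, 26 were also higher at puberty than in all 3 prepubertal libraries, and 13 had all 3 prepubertal libraries above postpuberty, as CRKL and BCKDK did. Over all 12714 genes these conditions were met by 2.25% and 1.19%. Of the 146 lower genes, 43 were also lower than in all prepubertal libraries, as TAF15 and PRR18 were, and 28 had prepubertal levels below postpuberty, as LAMA4 and TH did, beside 2.75% and 3.19% of all genes. The 247 genes were chosen on the puberty and postpuberty values that these conditions reuse, so a larger share among them is no result about them. The prepubertal libraries share no animal with the other stages, and this sorting was added after the values were seen.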

How the data were processed

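RNA of hypothalamus from 9 ewes was sequenced, 1 library per ewe. The authors trimmed reads (Trimmomatic, version 0.32 in the submitters' processing notes), aligned them with HISAT2 to ARS-UI_Ramb_v3.0 and assembled transcripts with StringTie. The deposited values were FPKM per transcript, although their description names raw counts. All values of the 76684 NM and XM transcripts were summed by RefSeq symbol to 21284 genes. Reads given to assembled transcripts or other classes are outside these sums, and no further scaling was applied to the deposited FPKM. From these, log2(FPKM + 1) was computed and tested with limma 3.58.1 (R 4.3.3) in 1 fit over 9 libraries with a variance trend and Benjamini-Hochberg adjustment over 12714 genes, and again without Puberty 2. The fit was tested on simulated data.

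Genes were named as the 12 per direction with the widest gap (the smaller of the paired differences) among those that held both ways with a mean of at least 5 FPKM, up to 4 such members per list, and a set of reproductive genes whatever their values. Others are said to be picked after their values were seen. Members and lists were chosen with earlier results of these data known. Alternatives were a pseudocount of 0.1, no filter, a minimum of 5 FPKM, other scalings, weights, a replicate block and leaving out each library. Plots used Python 3.11.15 and matplotlib 3.10.9. A few genes that meet these rules or belong to these lists are not reported or drawn here. No sequences were printed.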

Additional observations from a re-analysis of the deposited data

How the results depend on the processing

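The count of genes called by limma with all libraries stayed at 0 under every alternative except library weights, which called 1 (PRR18, lower at puberty). Without Puberty 2 it stayed at 0 except in leave-one-out fits, which ranged from 0 to 1 gene: INSL3 without Puberty 1 (adjusted p 0.0388) and NSMCE3 without Puberty 3 (adjusted p 0.0434), each with a lone puberty library assumed to vary like the other groups. The 247 genes that held both ways became 125 at a minimum of 5 FPKM, which tests 7398 genes, and ranged from 440 to 662 when 1 library was left out, since fewer libraries then have to separate. With a pseudocount of 0.1 the count was 357 and included all 247, and quantile normalization shared 176 of them. Scaling turned the direction split, with lower genes in the majority as deposited (40.9% higher) and with equal totals (31.5%) and higher genes under upper-quartile scaling (52.7%) and quantile normalization (64.0%). The sign of a list's median with all libraries turned in 3 lists under upper-quartile scaling, 3 with equal totals and 5 under quantile normalization, among them cholesterol synthesis (0.02 to -0.16 with equal totals) and astrocytes (0.16 to -0.03 and -0.17 with equal totals and quantile normalization).

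Replicate numbers showed no pairing of the puberty and postpuberty ewes: the same-numbered libraries correlated at -0.112, -0.065 and -0.0016 in their deviations from the stage means. Same-numbered prepubertal and postpuberty libraries correlated at 0.264, 0.522 and -0.0858. Those of prepuberty and puberty correlated at -0.321, -0.203 and -0.0874. A replicate block gave 0 called genes with all libraries and 0 without Puberty 2, with 285 and 443 at an unadjusted limma p below 0.05.

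The precision is limited by 3 ewes a stage, by a depth that the FPKM values do not show and by marker levels that differ between libraries of 1 stage. An adjusted p above the threshold does not show equal levels, and the causes of the shifts above were not tested.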
